A study of Rattus norvegicus with 20 samples.

Results

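The miR-30 family was followed through the soleus muscle and the dorsal root ganglia (DRGs) of rats after sciatic nerve injury. Its members were taken by name from the scanner files and comprised rno-miR-30a, rno-miR-30a*, rno-miR-30b-5p, rno-miR-30c, rno-miR-30d and rno-miR-30e, written below without the rat prefix, which are 6 of the 348 miRNAs that carried 1 name on every array. All 6 were detected on all 20 arrays, so none was lost to a filter on low values. RNA of adult male Sprague-Dawley rats was labelled with Cy3 and hybridised to Agilent arrays of rat miRNAs, 10 for the soleus, a slow postural muscle of the calf, and 10 for the L4-L6 DRGs, which hold the cell bodies of the sensory neurons of the sciatic nerve. In each tissue 3 arrays came from rats whose sciatic nerve had been cut and a segment removed (denervation, 6 months), 3 from rats with a loose silastic tube around the nerve (entrapment, 6 months) and 3 from rats whose tube was taken off after 6 months of entrapment and which were followed for 3 months more (decompression). A single array per tissue came from a sham operation, without a time point in its label. The labels do not tie an array to an animal, so a p-value measures the spread between arrays. Decompressed rats were also studied longer after the first operation, and this time and the decompression cannot be told apart.

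miRNAs are short RNAs cut from hairpin precursors. The strand that is loaded into the silencing complex pairs with messenger RNAs, mainly through its seed, bases 2 to 8 from the 5′ end, and represses them. miR-30a, miR-30b-5p, miR-30c, miR-30d and miR-30e are such 5p strands of related hairpins and share a seed, and miR-30a* is the other (3p) strand of the miR-30a hairpin. The family is abundant in heart and skeletal muscle and is known for repressing connective tissue growth factor, a matrix gene, and, for miR-30a, Beclin 1, a gene of autophagy.

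RefSeq's table (GRCr8) held the mature sequences of 4 of the 6 members, miR-30a, miR-30a*, miR-30c and miR-30e. They are shown because the probes have to tell these near-identical strands apart, and because the strands that moved and those that did not share a seed. Capitals mark the seed, and miR-384-5p, a relative with the same seed, is added.
miR-30a: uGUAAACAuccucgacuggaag
miR-30e: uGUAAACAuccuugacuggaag
miR-30c: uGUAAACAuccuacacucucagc
miR-384-5p: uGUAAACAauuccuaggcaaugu
miR-30a*: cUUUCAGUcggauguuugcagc

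All 3 of the 5p members with a sequence carried the seed GUAAACA, and with miR-384-5p they were the 4 of 693 mature miRNAs in that table (0.577%) that did. miR-30a and miR-30e differed at 1 of 22 positions (C13U, miR-30a first, counted from 1 at the 5′ end), whereas miR-30a and miR-30c shared their first 12 bases and differed at 5 of 22 positions. How much of one strand a probe for another takes up was not tested. The hairpin of miR-30a lies at chr9:33233941-33234011 (+ strand), 19670 bases from that of miR-30c-2 at chr9:33253682-33253765 (+ strand). The hairpin of miR-30c-1 lies at chr5:139634455-139634543 (− strand), 2906 bases from that of miR-30e at chr5:139637450-139637541 (− strand), both within the span of Nfyc, a subunit gene of the CCAAT-binding factor NF-Y. miR-30c is thus made from hairpins at both places, and its signal is their sum. Mir30b and Mir30d are neighbours as well, with 0 annotated genes between them, within the span of an uncharacterised gene.

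Signals were compared after each array was scaled to the 75th percentile of its signals, and log2 values were tested with limma over every miRNA with detection calls on 3 or more arrays (173 in soleus, 219 in DRGs). Benjamini-Hochberg adjusted p-values were read at a threshold of 0.05. Before scaling, that percentile ranged 6.2-fold among soleus arrays and 1.62-fold among DRG arrays, and 134 to 194 and 183 to 233 miRNAs were detected per array. The tissues carried their defining markers: miR-124, miR-183 and miR-9, of neurons, were detected on 10 of 10 DRG arrays and 0 of 10 soleus arrays, and the lowest scaled signal of miR-1, of muscle, in soleus (11150.0) was above its highest in DRGs (94.6). Not every marker was absent from the other tissue. Of 8 neuronal markers, 1 was detected on all arrays of each soleus group, and miR-182 on 2 of 10 soleus arrays. Of 6 muscle markers, 4 or 5 were detected on all arrays of each DRG group. Their summed scaled signal was 263 to 471 in DRGs and 48285 to 301141 in soleus. Of the 45 control features, which hold no rat miRNA, 12 in soleus and 24 in DRGs put entrapment and decompression wholly above or below sham and denervation, so that group and handling of these arrays cannot be told apart. On the soleus sham array and on soleus denervation arrays 1 and 2, 11, 12 and 15 control signals of at least 20 recurred digit for digit elsewhere among the soleus arrays. This was so for 0 to 8 control signals on the other soleus arrays and for 0 on every DRG array, and for 0 signals of the members. The sham array is the only reference of its tissue and could not be left out.

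In the soleus, miR-30b-5p and miR-30c stood above the sham array on every injury array, miR-30d stood below it, and miR-30a and miR-30e did not depart from it by the test. The scaled signal of miR-30c, which is made from hairpins at both places, was 506 on the sham array, and 5572, 3886 and 2711 on the denervation arrays. It was 974, 1994 and 2529 after entrapment and 2402, 1791 and 2205 after decompression. Every injury array lay above sham, and the denervation arrays lay highest, without overlap with the others. limma gave log2 differences from sham of 2.94 (SE 0.57, 7.69-fold, adjusted p = 0.0067) after denervation, 1.75 (SE 0.57, 3.36-fold, adjusted p = 0.0462) after entrapment and 2.07 (SE 0.57, 4.18-fold, adjusted p = 0.0249) after decompression.

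miR-30b-5p, a 5p strand of the hairpin next to that of miR-30d, moved with miR-30c. Its scaled signal was 197 on the sham array, 1882, 1155 and 787 after denervation, 466, 632 and 888 after entrapment and 835, 521 and 884 after decompression. Sham again lay below all 9 injury arrays, and denervation overlapped the other injuries at its lowest array. limma's log2 differences were 2.60 (SE 0.56, adjusted p = 0.0108), 1.70 (SE 0.56, adjusted p = 0.0479) and 1.88 (SE 0.56, adjusted p = 0.0319) in that order. For both strands the sign held in 21 of 21 alternative settings in each comparison with sham, while limma's call held in 18 after denervation, in 9 (miR-30c) and 12 (miR-30b-5p) after entrapment and in 15 and 13 after decompression. Without denervation arrays 1 and 2, limma's adjusted p after denervation became 0.0572 for miR-30b-5p and 0.0551 for miR-30c, so that 0 members were called. The calls after entrapment were lost for both strands without denervation array 2, entrapment array 2 or 3, or decompression array 1 or 3. In these settings 0 members were called higher, beside 10 to 12 of all 173 tested miRNAs. Without decompression array 2, 1 member was called, beside 16 of all. The calls after decompression went to 0 members without decompression array 1 or 3 and to 1 without entrapment array 2. Of all tested miRNAs, 11, 13 and 13 were called higher in these settings.

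miR-30d went the other way after entrapment. Its scaled signal was 1623 on the sham array, 1574, 1148 and 490.2 after denervation, 305, 399.7 and 533 after entrapment and 520.2, 397 and 579.9 after decompression. All entrapment and decompression arrays were at least 2-fold below sham, and the denervation arrays ran from the sham level down to theirs. limma's log2 difference was -2.01 (SE 0.61, adjusted p = 0.0366) after entrapment, -1.72 (SE 0.61, adjusted p = 0.0607) after decompression and -0.76 (SE 0.61, adjusted p = 0.394) after denervation. The call after entrapment held in 8 of 21 alternatives, went to 0 members without denervation array 2, entrapment array 1 or 2, or decompression array 1 or 3, and in the authors' processed values the difference was 0.18, where the median over all tested miRNAs was 1.55. With any 1 of the arrays just named left out, 21 to 32 of all 173 tested miRNAs were still called lower after entrapment. Without denervation array 1 or 3, 1 member, miR-30d, was also called lower after decompression, as were 36 and 50 of all 173 tested miRNAs.

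miR-30a, the strand printed first above, did not depart from sham by limma's test in any soleus group, with an adjusted p of at least 0.409. Its scaled signal was 4218 on the sham array and 3588, 2704 and 2078, then 1646, 3102 and 3889, then 4110.4, 2861 and 4359 on the denervation, entrapment and decompression arrays. The sham value lay within the range of the decompression arrays and above all denervation and entrapment arrays. miR-30e, whose hairpin lies beside that of miR-30c-1, had 1905 on the sham array, 1116, 1001 and 1023 after denervation, 572, 1485 and 1602 after entrapment and 1777, 1645 and 1547 after decompression. Sham was above all 9 injury arrays, but limma called no difference (adjusted p = 0.262, 0.303 and 0.795).

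The 3p strand miR-30a* stood above the sham array on every injury array, unlike miR-30a, which is cut from the same hairpin, whereas among the injury arrays the signals of both varied together. Its scaled signal was 100.2 on the sham array, 463, 332 and 176 after denervation, 193, 391 and 519.9 after entrapment and 486, 349.6 and 503 after decompression. All injury arrays lay above sham, and the 3 injury groups overlapped. limma called miR-30a* higher after decompression (log2 difference 2.14, SE 0.64, adjusted p = 0.0322), but not after denervation (1.58, adjusted p = 0.101) or entrapment (1.76, adjusted p = 0.072). The call held in 15 of 21 alternatives and was among those lost without decompression array 1 or 3. miR-30e*, the other strand of the miR-30e hairpin and no member of the 6, was at 61.7 on the sham array and 121 to 365 on the injury arrays, and limma called it higher after denervation (3.92-fold, adjusted p = 0.0355), entrapment (3.85-fold, adjusted p = 0.0361) and decompression (5.07-fold, adjusted p = 0.0168).

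**Figure D1:**
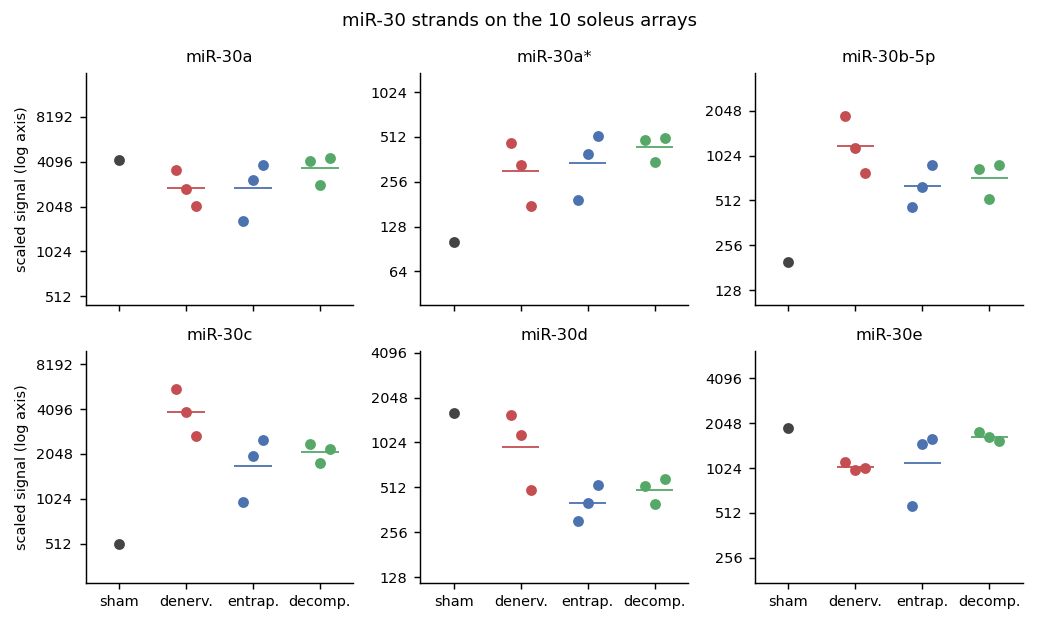
Scaled signal (log axis) of each miR-30 strand on the 10 soleus arrays, by sham, denervation, entrapment and decompression. Points are arrays and lines are means of log2 values, 3 arrays a group. miR-30c lies at 506 on the sham array and at 974 to 5572 after injury, and miR-30d at 1623 and at 305 to 1574.

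In counts, limma called 2 of the 6 members higher than sham after denervation, where it called 11.6% of all 173 tested miRNAs higher, and 0 lower (15%). After entrapment it called 2 higher (9.83% of all tested) and 1 lower (19.7%), and after decompression 3 higher (9.83%) and 0 lower (22%), with 4 members at an unadjusted p under 0.05. The median log2 difference of the 6 members was 0.48, 0.53 and 0.85, against -0.07, -0.37 and -0.25 over all tested miRNAs. By the criterion of at least 2-fold from sham on each of the 3 arrays, 2 members were higher after denervation (15.6% of all tested), 1 higher and 1 lower after entrapment (11% and 27.2%), and 3 higher and 1 lower after decompression (13.3% and 27.2%). Sham lay below all 9 injury arrays for 3 members, against 16.8% of all tested miRNAs, and above them for 2, against 34.7%. The shares over all tested miRNAs rest on the same single sham array.

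Among the injuries of the soleus, limma called 0 members between entrapment and denervation (0% of all tested were higher and 11.6% lower) and 0 between decompression and denervation (1.16% higher and 12.7% lower), with 3 and 0 at an unadjusted p under 0.05. Entrapment minus denervation was -0.90 (SE 0.40, adjusted p = 0.208) for miR-30b-5p, -1.19 (SE 0.40, adjusted p = 0.106) for miR-30c and -1.26 (SE 0.43, adjusted p = 0.111) for miR-30d on the log2 scale. Between decompression and entrapment limma called 0 members, with 0 at an unadjusted p under 0.05, and 0% of all tested miRNAs in either direction. Without denervation array 3, the one nearest to the other injuries in miR-30d, limma called 2 members, miR-30c and miR-30d, lower after entrapment than after denervation, and 1 after decompression. Of all 173 tested miRNAs, 33 were then called lower and 6 higher after entrapment, and 32 lower and 11 higher after decompression.

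A soleus sample holds fibres, vessels, nerve and connective tissue, and fewer cells of a type and less RNA per cell cannot be told apart in it. Both markers of endothelium, miR-126 and miR-126*, were called higher than sham after each injury, with a summed scaled signal of 325.5 on the sham array and 895.5 to 1465 on injury arrays, and miR-126* was not detected on the sham array. Of 5 tested skeletal muscle markers, 1 rose and 1 fell after denervation and 1 fell after entrapment and after decompression. Their summed signal was 177076 on the sham array, 84829 to 301141 after denervation and 48285 to 99078 after entrapment and decompression. Of 5 markers of fibroblasts and smooth muscle, 1 was higher after each injury, and 1 was lower after entrapment and 2 after decompression, with a summed signal of 2968 on the sham array and 1556 to 2613 after injury. Of 4 leukocyte markers, 1 was higher after denervation, and 1 lower after entrapment and after decompression (613 on the sham array, 414 to 669 after denervation, 269.8 to 387 after the other injuries), and 1 of 2 markers of myelinating glia was lower after denervation. The part of these cells in the change of miR-30b-5p, miR-30c, miR-30d and miR-30a* was not tested.

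**Figure D2:**
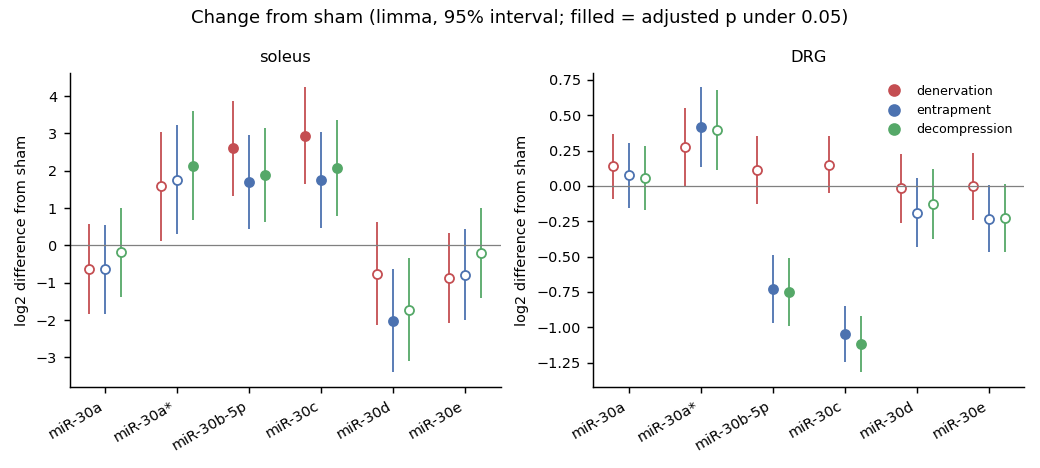
Log2 difference from sham of each miR-30 strand in soleus (left) and DRGs (right, on a narrower scale) after denervation, entrapment and decompression. Points are limma estimates over 3 arrays against 1, bars are 95% intervals, and filled points have an adjusted p under 0.05. miR-30b-5p and miR-30c lie above 0 after every injury in soleus (1.70 to 2.94) and below 0 after entrapment and decompression in DRGs (-0.73 to -1.12).

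In the DRGs, the same strands, miR-30b-5p and miR-30c, lay lower after entrapment and decompression than on the sham and denervation arrays. The scaled signal of miR-30c was 1258 on the sham array, 1419, 1386 and 1387 after denervation, 586, 622 and 621 after entrapment and 584, 587 and 568 after decompression. The arrays fell into a high and a low set with nothing between them, and replicates differed by little. limma's log2 difference from sham was 0.15 (SE 0.09, adjusted p = 0.416) after denervation, -1.05 (SE 0.09, 2.06-fold lower, adjusted p = 6.75e-05) after entrapment and -1.12 (SE 0.09, 2.17-fold lower, adjusted p = 4.8e-05) after decompression. Against denervation, the difference was -1.20 (adjusted p = 2.29e-06) after entrapment and -1.27 (adjusted p = 1.9e-06) after decompression, and both calls held in 20 of 20 alternatives.

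miR-30b-5p followed miR-30c with a smaller change. Its scaled signal was 543 on the sham array, 622, 578 and 564 after denervation, 306, 343 and 334 after entrapment and 327, 324 and 318 after decompression. Again all sham and denervation arrays lay above all others. limma's log2 difference from sham was 0.11 (SE 0.10, adjusted p = 0.61) after denervation, -0.73 (SE 0.10, adjusted p = 0.0017) after entrapment and -0.75 (SE 0.10, adjusted p = 0.00153) after decompression, and against denervation -0.84 (adjusted p = 4.46e-05) and -0.86 (adjusted p = 4.57e-05). With each array scaled to its median instead, which raised the median of all tested miRNAs to 0.73 in both comparisons with sham, miR-30b-5p stood at 0.11 and 0.10 and miR-30c at -0.20 and -0.27, all below that median and none called. Under each other alternative both strands stayed below sham.

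miR-30e moved less than either. Its scaled signal was 432 on the sham array, 441, 422 and 432 after denervation, 344, 391 and 372 after entrapment and 353, 374 and 383 after decompression. The sham and denervation arrays lay above all others. limma called it lower than after denervation following entrapment (log2 difference -0.23, SE 0.07, adjusted p = 0.0404) and decompression (-0.22, SE 0.07, adjusted p = 0.0433), calls that held in 11 of 20 alternatives each and turned to 0.41 and 0.43 under median scaling, where the medians of all tested miRNAs were 0.49 and 0.51. Against sham the differences were -0.23 in both groups (adjusted p = 0.144 and 0.15).

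Of the other strands in the DRGs, miR-30a and miR-30d varied little and miR-30a* was lowest on the sham array. miR-30a, which shares its seed with those above, ran from 772 to 890.5 over the 10 arrays, with 777 on the sham array, and miR-30d from 165 to 199.6 with 196 on the sham array. limma called neither between any pair of groups, but under median scaling, which raised the median of all tested miRNAs, it called both higher after entrapment and decompression than sham and than denervation. miR-30a* had 52.9 on the sham array, 66.6, 62.1 and 63.2 after denervation, 66.4, 74.2 and 71.5 after entrapment and 62.8, 72.7 and 73.9 after decompression. Sham lay below all 9 injury arrays, and the log2 difference was 0.42 (SE 0.12, adjusted p = 0.0462, limma) after entrapment, 0.40 (adjusted p = 0.0545) after decompression and 0.27 (adjusted p = 0.29) after denervation. The call after entrapment held in 8 of 20 alternatives. It was lost without any 1 of the denervation arrays, entrapment array 2 or 3, or decompression array 2 or 3. Of all 219 tested miRNAs, 2 or 3 were called higher after entrapment in each of these settings.

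**Figure D3:**
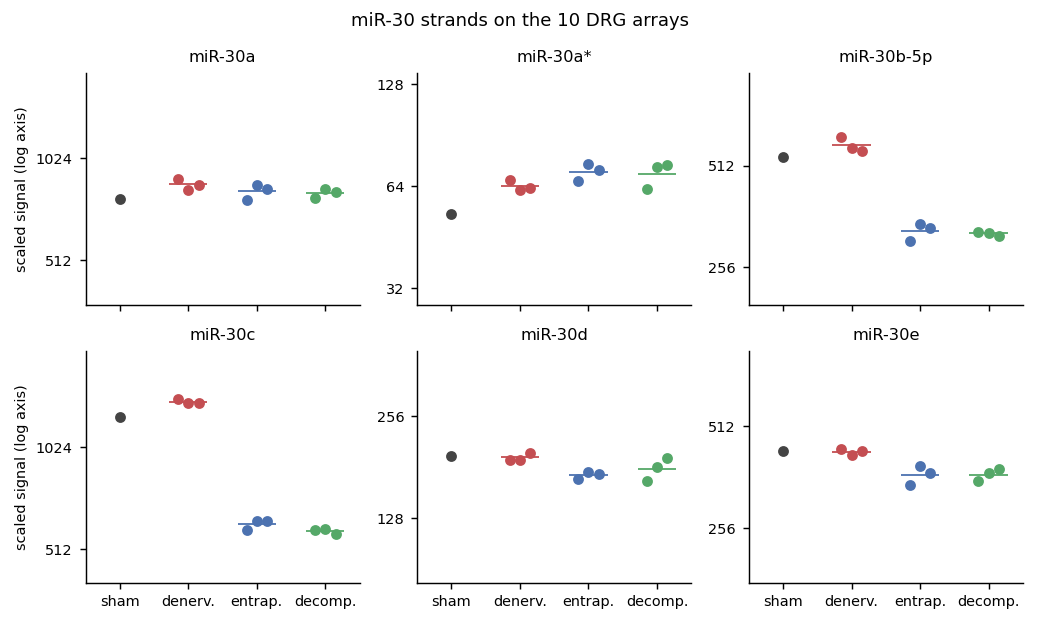
Scaled signal (log axis, narrower than for soleus) of each miR-30 strand on the 10 DRG arrays, by group. Points are arrays and lines are means of log2 values, 3 arrays a group. miR-30c lies at 1258 to 1419 on sham and denervation arrays and at 568 to 622 after entrapment and decompression, while miR-30a stays between 772 and 890.5.

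In counts, limma called 0 of the 6 members after denervation in DRGs (0.457% of the 219 tested miRNAs were called higher and 0% lower), with 0 at an unadjusted p under 0.05. It called 2 lower (17.4% of all tested) and 1 higher (2.28%) than sham after entrapment and 2 lower (16.4%) and 0 higher (1.83%) after decompression. Under median scaling, where it called 127 and 130 of the 219 tested miRNAs higher than sham and 14 and 18 lower, these became 4 higher (miR-30a, miR-30a*, miR-30d and miR-30e) and 0 lower in both comparisons, and against denervation 4 higher and 1 lower (miR-30c) in both. With the main scaling it called 3 lower and 0 higher than denervation after entrapment (32.9% and 8.22%). After decompression it called 3 lower and 0 higher than denervation (27.9% and 8.68%). Between decompression and entrapment it called 0, with 0 at an unadjusted p under 0.05, and 0% of all tested in either direction. By the 2-fold criterion 0 members were higher or lower after denervation (0.457% and 0.913% of all tested), and miR-30c alone was lower on each array, after entrapment (11%) and after decompression (13.7%). All entrapment and decompression arrays lay below all sham and denervation arrays for 3 of the 6 members, miR-30b-5p, miR-30c and miR-30e, against 26.9% of all tested miRNAs, and 24 of the 45 control features parted these arrays too. Sham lay below all 9 injury arrays for 1 member, miR-30a* (15.1% of all tested), and above them for 0 (19.6%). Several cell type markers moved in the same comparisons. miR-126* (endothelium) fell after entrapment and decompression, by 1.69 and 1.68 on the log2 scale, while miR-126 stood at -0.00 and -0.04. The summed signal of the 8 neuronal markers was 4660.4 to 5149 after denervation, 5506 to 6413 after entrapment and decompression and 5630.1 on the sham array, and 1 of the 8 was lower than sham and, against denervation, 4 higher and 1 lower, after entrapment and after decompression alike. Of 5 markers of fibroblasts and smooth muscle 1 was lower in all of these comparisons. Against denervation 3 of 4 leukocyte markers were lower after entrapment, with a summed signal of 734 to 1175 after denervation and 590.3 to 825 after entrapment. After entrapment 1 of 2 markers of myelinating glia was higher than sham and 1 lower than denervation. Of 5 skeletal muscle markers 1 was lower than sham after entrapment, and against denervation 1 was higher after both and 1 lower after entrapment. Their part in the change of the members was not tested.

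The 2 tissues were set side by side on 1 scale, common to the 20 arrays, which gives values slightly different from those above. On it limma called 5 of the 6 members higher in soleus than in DRGs, where 18.8% of the 234 tested miRNAs were called higher and the median of all was -1.03. The strands fell into a group of 4 with like differences and a pair with smaller mean differences. miR-30a ran from 1412 to 3797 (median 2898) in soleus and from 857 to 1001 (median 953) in DRGs, a log2 difference over the 4 group means of 1.63 (SE 0.17, adjusted p = 3.01e-07). For miR-30a*, miR-30d and miR-30e limma's difference was 1.64 (adjusted p = 3.42e-06), 1.63 (adjusted p = 2.19e-06) and 1.41 (adjusted p = 1.39e-06), and the ranges of the tissues did not overlap for any of these 4. miR-30c ran from 455 to 5011 in soleus and from 665 to 1605 in DRGs and differed by 0.50 (SE 0.18, adjusted p = 0.0208). miR-30b-5p ran from 178 to 1693 and from 371 to 669 and differed by 0.04 (95% interval -0.34 to 0.43, adjusted p = 0.815). On the sham arrays both were lower in soleus, miR-30c at 455 against 1388 and miR-30b-5p at 178 against 599. In each injury group the means of both were higher in soleus than in DRGs, so their differences average over opposite signs. miR-384-5p, the relative with the same seed, was detected on 0 of 10 soleus arrays and 10 of 10 DRG arrays, where its scaled signal was 72.2 to 91.5 on the scale of the DRG arrays.

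The changes from sham of miR-30b-5p and miR-30c differed between the tissues. In the interaction term of limma, soleus minus DRG, the change of miR-30c was larger by 2.79 (SE 0.60, adjusted p = 0.00474) after denervation, 2.60 (SE 0.60, adjusted p = 0.00532) after entrapment and 3.03 (SE 0.60, adjusted p = 0.00154) after decompression on the log2 scale. For miR-30b-5p it was 2.49 (adjusted p = 0.0074), 2.23 (adjusted p = 0.0123) and 2.47 (adjusted p = 0.00598). miR-30d differed by -2.02 after entrapment (SE 0.65, adjusted p = 0.0318). These were 2 members higher after each injury (8.55% of the 234 tested miRNAs each time) and 1 lower after entrapment (18.8%), which went to 0 without entrapment array 1 or 2 of either tissue. All of them compare with the 1 sham array of each tissue, and for the other strands the interaction had SEs of 0.54 to 0.69.

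Ratios between members on the same array do not depend on the scaling, since a constant per array cancels. Each 5p strand was set against the mean log2 signal of the other four, and miR-30a against miR-30a*, and 3 denervation arrays were compared with the 6 entrapment and decompression arrays by an exact two-sided permutation test, whose smallest p is 0.0238, adjusted over 12 tests. The level of such a ratio depends on the probes, so only its change from array to array is read. In soleus, miR-30c stood at 1.53 ± 0.05 (SD, n = 3) on denervation arrays against 0.83 ± 0.11 (SD, n = 6) on the others (exact permutation test, adjusted p = 0.0357), and miR-30a at 0.89 ± 0.13 and 1.76 ± 0.10 (adjusted p = 0.0357, exact permutation test). Neither pair of ranges overlapped, and such ratios were not computed for other miRNAs. The ratios of miR-30d and miR-30e (adjusted p = 0.0571 for each, exact permutation test), of miR-30b-5p (adjusted p = 0.0779) and of miR-30a over miR-30a* (adjusted p = 0.548) did not pass. With 1 array fewer the smallest p of the test rises in the tissue of that array, and the 12 tests of both tissues are adjusted together. The calls in soleus were lost without any 1 of the 18 injury arrays but soleus entrapment array 1, whose removal gave 3 higher and 2 lower.

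In DRGs all 6 ratios parted without overlap (adjusted p = 0.0357 for each, exact permutation test). Without ratios of other miRNAs, no share over all miRNAs stands beside this count. Only a constant per array cancels in a ratio. In DRGs 24 of the 45 control features put entrapment and decompression wholly above or below sham and denervation, so group and handling cannot be told apart here either. miR-30c stood at 1.63 ± 0.02 (SD, n = 3) on denervation arrays against 0.72 ± 0.06 (SD, n = 6) on the others, and miR-30b-5p at 0.06 ± 0.06 and -0.37 ± 0.05. These 2 were relatively higher after denervation, and miR-30a (0.74 ± 0.03 and 1.28 ± 0.02), miR-30d (-1.94 ± 0.07 and -1.48 ± 0.08) and miR-30e (-0.49 ± 0.01 and -0.14 ± 0.03) relatively lower. These calls were lost without any 1 DRG injury array. miR-30a over miR-30a* was 3.74 ± 0.01 and 3.54 ± 0.06. Such ratios are bound to each other, since each strand is in the denominator of the others. Over all arrays, 10 in each tissue, the ratio of miR-30a was 0.51 higher (adjusted p = 0.0462) and that of miR-30b-5p 0.89 lower (adjusted p = 0.00048) in soleus than in DRGs on the log2 scale, by a two-sided permutation test with 100000 resamples adjusted over 6 tests, the first of which was lost without any 1 soleus entrapment, soleus decompression or DRG denervation array, and the other 4 ratios gave adjusted p-values of 0.339 to 0.52.

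**Figure D4:**
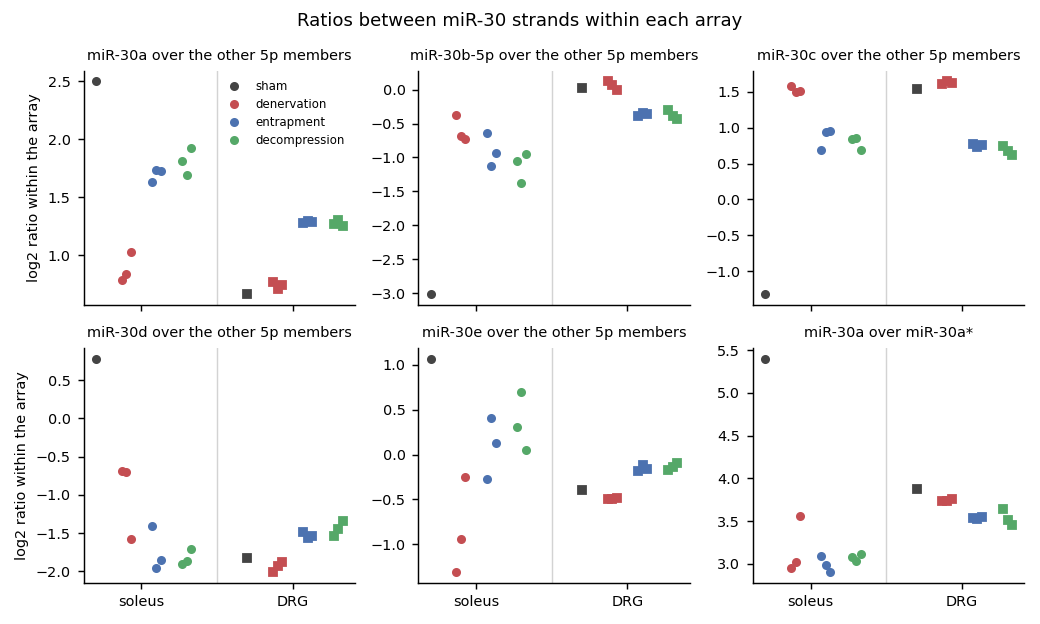
Log2 ratio of each 5p strand over the mean of the other four, and of miR-30a over miR-30a*, on each soleus (circles) and DRG (squares) array, coloured by group. The ratio of miR-30c averages 1.53 on denervation arrays and lies at 0.69 to 0.95 on entrapment and decompression arrays of soleus, with -1.32 on the sham array, and at 1.61 to 1.65 against 0.61 to 0.78 in DRGs, with 1.53 on the sham array.

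The ratio of miR-30c to miR-30a, which was picked after its values were seen and is given without a test, was higher after denervation than after the other injuries in both tissues, and higher in DRGs than in soleus within each of these sets. It was 1.30 to 1.55 in soleus and 1.59 to 1.68 in DRGs after denervation, and 0.51 to 0.65 and 0.70 to 0.76 after entrapment and decompression. The tissues differed most on their sham arrays, at 0.12 in soleus and 1.62 in DRGs. The DRG sham array lay within the range of the DRG denervation arrays, and the soleus sham array lay below all other arrays. The ratio of miR-30b-5p to miR-30c varied less, from 0.29 to 0.48 in soleus and from 0.41 to 0.56 in DRGs, sham arrays included.

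**Figure D5:**
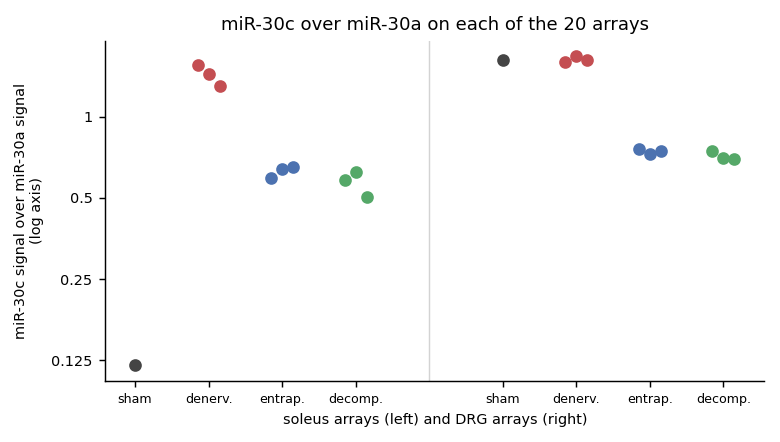
Signal of miR-30c over that of miR-30a (log axis) on each of the 20 arrays, by tissue and group, 1 point an array. Denervation arrays lie at 1.30 to 1.68 and entrapment and decompression arrays at 0.51 to 0.76 in both tissues, and the sham arrays at 0.12 (soleus) and 1.62 (DRGs).

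Over the 10 arrays of a tissue, which share their scaling and, in soleus, a sham array far from the rest, miR-30b-5p and miR-30c had the highest correlation of log2 signal among all pairs of members, r = 0.975 in soleus and 0.996 in DRGs. Without the sham array it was 0.944 and 0.995 over 9 arrays. miR-30b-5p and miR-30d, from neighbouring hairpins, had r = 0.113 over 10 soleus arrays and 0.959 over the 9 injury arrays, and miR-30a and miR-30a*, from 1 hairpin, 0.387 and 0.957. miR-30a and miR-30e reached 0.86 in soleus. The miRNAs outside the family whose signal was most like the mean of the 5p members were miR-186 (r = 0.848), miR-10a-5p (0.784) and miR-378 (0.727) among 102 candidates in soleus, and miR-24-2* (0.989), miR-9 (0.988) and miR-126* (0.987) among 167 in DRGs.

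The remaining strands of these hairpins were dim. In soleus miR-30c-2* ran from 14.9 to 42.3 on injury arrays with 75.1 on the sham array, and limma called it in no comparison of soleus groups. miR-30c-1* lay at 6.2 to 17 on sham and denervation arrays and 0.764 to 4.61 after entrapment and decompression, and was called lower than after denervation following entrapment (adjusted p = 0.0388, limma) and decompression (adjusted p = 0.0426, limma). It was detected on 2 of 3 entrapment and 1 of 3 decompression arrays. Values under 2.71 were raised to that floor before the test, so the floor sets part of these differences and of their spread. miR-30b-3p and miR-30d* were detected on 8 and 5 of 10 soleus arrays and on 0 of 10 DRG arrays. In DRGs miR-30e*, at 56.6 on the sham array, had 67.8, 65.8 and 71.4 after denervation and 51.9 to 61.1 after entrapment and decompression, and was called lower than after denervation in both (1.22-fold, adjusted p = 0.0265, and 1.21-fold, adjusted p = 0.0353, limma), as miR-30e was.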

How the data were processed

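The authors deposited 1 scanner file per array, holding an intensity per miRNA (its total gene signal) that Agilent Feature Extraction 9.5.3 sums over a miRNA's probes after background subtraction and that is not normalised between arrays, and a detection call (1 or 0). A further deposited table holds processed signal, in which the members' values lie within 1% of scanner values times a constant per array. There, the 6 DRG columns of entrapment and decompression equal the scanner values of an array of the other of these groups. The table therefore served only as an alternative, and arrays were assigned to groups by the scanner files. Values given for DRG entrapment or decompression alone rest on that assignment. Arrays were brought to a common 75th percentile, taken over the 108 miRNAs detected on all soleus arrays, over all 348 in DRGs and over 102 detected on all 20 arrays for both tissues. Values below a floor (2.71, 2.31 and 2.43), the median over arrays of the lowest detected signal, were raised to it before taking log2. limma 3.58.1 (R 4.3.3) took in the 10 arrays of a tissue in 1 fit with group as the only term, which leaves 6 residual degrees of freedom, and the 20 arrays in another for differences between tissues. The 1 sham array per tissue has no spread of its own and is assumed to vary like the other groups. Ratios were tested with SciPy 1.17.1. The study took tissue from 3 rats a group, so soleus and DRG arrays may share animals. The tests between tissues treated them as independent. The fits within a tissue were tried on simulated data with known changes in the entrapment arrays, read against denervation only. Comparisons with the 1 sham array and between tissues were not tried in this way. The miRNAs named are the 6 members, other strands of their hairpins, miR-384-5p, markers and the 3 most like the mean of the 5p members in each tissue. The members, relatives and marker lists were chosen with earlier results of these data known. Other scalings, filters, values and fits, and leaving out each injury array, were tried. Precision is limited by how few arrays there are. Spinal segments and other assays were not analysed here.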

Additional observations from a re-analysis of the deposited data

Results flagged for a closer look

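The change from sham differed between soleus and DRGs, by the interaction term of limma, in 7 cases among the members. On the log2 scale, soleus minus DRG, miR-30b-5p differed by 2.49 after denervation, 2.23 after entrapment and 2.47 after decompression, and miR-30c by 2.79, 2.60 and 3.03. miR-30d differed by -2.02 after entrapment. The sign held in 25 of 25 alternatives for miR-30b-5p and miR-30c. For miR-30d it held in 23 of 25 and the call in 16. The miR-30d difference was 0.16 without scaling and 0.26 with the authors' processed values. The medians of all 234 tested miRNAs were then 1.44 and 1.43. All 7 rest on the 1 sham array of each tissue.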

How the results depend on the processing

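Over all alternatives but the leaving out of 1 array, 441 of 544 log2 differences of members kept their direction and their side of the threshold, 61 fell below it, 23 passed it and 19 changed sign. The limits are these. Each tissue had 1 sham array, which could not be left out. Soleus arrays differed more in scanner signal than DRG arrays. Counts below are of the 6 members, and differences are log2 values. With the 75th percentile over the other set of miRNAs, 1 member was higher after decompression than sham in DRGs, 0 were 2-fold lower after decompression in soleus, and after entrapment in soleus 3 were 2-fold higher, 0 were 2-fold lower and 0 were called lower. Of all tested miRNAs, 9 were then called higher after decompression in DRGs and 16 lower after entrapment in soleus. With the 75th percentile over all miRNAs, 0 tissue differences after entrapment were called lower, beside 16 of all 234 tested. With detection on all 10 arrays, 0 were higher after entrapment in DRGs, beside 3 of all 173 tested miRNAs. In soleus 1 was then lower after decompression, beside 20 of all 108. With no filter, 1 was higher after decompression than sham in DRGs, beside 7 of all 348 miRNAs. In soleus 0 were higher after decompression, beside 11 of all. After entrapment in soleus 0 were higher and 0 lower, beside 10 and 47 of all. With loess, 1 was higher in DRGs after decompression than sham and 1 after entrapment than denervation, beside 24 and 40 of all 219 tested miRNAs. After entrapment in soleus 3 were then 2-fold higher.

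Median scaling moved DRG values most. After decompression 4 were higher and 1 lower than denervation, with miR-30e at 0.43, and 4 were higher, 0 lower, 1 2-fold higher and 0 2-fold lower than sham, with miR-30b-5p at 0.10 and miR-30e at 0.63. After entrapment 4 were higher and 1 lower than denervation, with miR-30e at 0.41, and 4 were higher, 0 lower, 1 2-fold higher and 0 2-fold lower than sham, with miR-30b-5p at 0.11 and miR-30e at 0.61. After denervation miR-30e stood at 0.20. In soleus 3 were 2-fold higher and 0 were lower after entrapment, where 27 of all 173 tested miRNAs were called lower. The medians of all tested miRNAs rose to 0.18, 0.73 and 0.73 against sham in DRGs. With no scaling, 5 were lower in DRGs after decompression and 5 after entrapment than denervation, with miR-30a* at -0.31 and -0.30, 0 were higher than sham after entrapment, and miR-30e stood at 0.086 after denervation. Of all 219 tested miRNAs, 128 and 134 were then called lower than denervation in DRGs, with medians of -0.58 and -0.59. In soleus, where all tested medians were then 1.32, 1.04 and 1.02, 1 was higher and 0 were 2-fold lower after decompression, 3 were 2-fold higher, 0 2-fold lower and 0 lower after entrapment, and miR-30d stood at 0.73 after denervation. Of all 173 tested miRNAs in soleus, 6 were then called higher after decompression and 6 lower after entrapment. Of the tissue differences 0 were then higher after denervation and 0 lower after entrapment, beside 3 and 0 of all 234 tested. The difference of miR-30d after entrapment was 0.16, where the median of all was 1.44. With quantile normalization, 1 was higher in DRGs after decompression and after entrapment than denervation, and 1 after decompression and after denervation than sham, with miR-30c at -0.14 after denervation. In soleus 2 were 2-fold higher and 0 lower after entrapment, 0 tissue differences after entrapment were lower, 2 ratios were lower in soleus than in DRGs and 2 soleus ratios were lower after denervation. Of all tested miRNAs, limma with quantile normalization called 46 and 51 higher than denervation in DRGs after decompression and entrapment. It called 37 and 13 higher than sham there after decompression and denervation. After entrapment it called 18 lower in soleus and 31 tissue differences lower. The cause was not tested for any of these changes.

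With the authors' processed values, 0 members were 2-fold lower after entrapment or decompression and 0 higher after entrapment in DRGs, with miR-30e at 0.11 after denervation. In soleus 0 were called higher after denervation, entrapment or decompression, 0 were lower after entrapment, 3 were 2-fold higher and 0 2-fold lower after entrapment, and 0 were 2-fold higher and 0 2-fold lower after decompression. Of all 173 tested miRNAs in soleus, 0 were then called higher in each of these comparisons with sham, and 0, 1 and 1 lower. miR-30d stood at 1.18 after denervation and 0.18 after entrapment, and miR-30a* at -0.67 between decompression and denervation. The medians of all tested miRNAs in these comparisons were 1.69, 1.55 and -1.22. Of the tissue differences 0 were called higher after any injury and 0 lower after entrapment, with miR-30d at 0.26. Over all 234 tested miRNAs, 1, 0 and 1 were higher after denervation, entrapment and decompression. After entrapment 1 was lower, and the median was 1.43. With only both groups compared in a fit, which has fewer arrays, 0 were higher and 1 lower after entrapment in DRGs. Of all 219 tested miRNAs, 0 were then higher and 19 lower. In soleus 0 were higher after denervation, beside 1 of all 173. After entrapment in soleus 0 were higher and 0 lower, beside 9 and 28 of all. With soleus denervation arrays 1 and 2 left out, chosen after seeing the data, 0 were higher after denervation, 1 was higher after entrapment and 1 lower after decompression, with miR-30d at 0.0078 between decompression and denervation.

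The arrays share replicate numbers, and the deviations of same-numbered arrays from their group means were correlated. In soleus 1 of 9 correlations was over 0.1. In DRGs 4 of 9 were, among them all of those between arrays numbered 1 (0.34, 0.26 and 0.44). The main fits did not treat same-numbered arrays as pairs. With the replicate block, 0 were higher after entrapment in DRGs, beside 2 of all 219 tested miRNAs. In soleus 0 were higher after decompression, beside 7 of all 173. After entrapment in soleus 0 were higher and 0 lower, beside 10 and 17 of all. Of the tissue differences 0 were lower after entrapment, beside 39 of all 234.

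Leaving out 1 injury array at a time, the count higher than sham ran from 0 to 1 after entrapment and from 0 to 1 after decompression in DRGs. In soleus it ran from 0 to 3 higher and 0 to 1 lower after decompression and from 0 to 3 higher, 0 to 1 lower and 1 to 3 2-fold higher after entrapment, and from 0 to 2 lower for entrapment and 0 to 1 lower for decompression against denervation. Over all 219 tested miRNAs in DRGs, the count higher than sham ran from 2 to 16 after entrapment and from 2 to 12 after decompression. Over all 173 in soleus, it ran from 10 to 22 and from 11 to 22, and the count lower from 21 to 49 and from 28 to 50. Lower tissue differences of members ran from 0 to 1 after denervation, entrapment and decompression alike. Ratios called ran from 0 to 3 higher and 0 to 3 lower in DRGs, from 0 to 3 higher and 0 to 2 lower in soleus, and from 0 to 1 higher in soleus than in DRGs. miR-30e ran from -0.0186 to 0.0128 after denervation in DRGs, miR-30a* from -0.21 to 0.59 between entrapment and denervation in soleus, and miR-30a over miR-30a* from -0.0455 to 0.26 in soleus.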
